A study of Mus musculus with 52 samples.

Results

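Germline genes are genes whose products are needed in germ cells, in meiosis and in the piRNA pathway, and which embryonic stem cells keep silent. The 10 genes described here are Dazl, Ddx4, Tdrd1, Mael, Stk31, Sycp1, Sycp3, Hormad1, Stag3 and Slc25a31. They were chosen as germline genes with CpG island promoters known to be held silent by DNA methylation or by the PRC1 complex that contains PCGF6. No value measured here was part of that rule, but earlier results of these data were known when the genes were chosen. Matching of their symbols to the RefSeq identifiers of the data gave 11 promoters of 20633, since Tdrd1 is listed with a pair of start sites.

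Most CpG islands are free of DNA methylation and accessible, and KDM2A and KDM2B bind them through a ZF-CxxC domain. KDM2B brings a PRC1 complex with PCGF1 to a subset of these islands, where it deposits ubiquitin on histone H2A. Germline promoters are instead known as targets of a PRC1 complex in which PCGF6 is joined by the DNA-binding proteins MGA and MAX, which recognise the E-box, and by E2F6 with its partner DP1, which recognises an E2F site. Many germline promoters also gain DNA methylation during development.

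The accessibility of promoters in mouse embryonic stem cells (mESCs) was measured by ATAC-seq with a spike-in for calibration (cATAC-seq). In ATAC-seq the Tn5 transposase inserts sequencing adapters into open DNA, and Drosophila SG4 cells were mixed in so that the mouse signal could be scaled to a fly reference. All 4 lines carry floxed alleles and a CRE recombinase that becomes active upon addition of 4-hydroxytamoxifen (CreERT2, at the ROSA26 locus where the methods give its place), and each was compared without treatment and after 800 nM tamoxifen for 96 h. In Kdm2a/b-JmjC fl/fl cells, derived from mice, tamoxifen deletes the exons encoding the JmjC demethylase domain of both proteins, so that their long forms are lost and the short forms stay. In Kdm2a/b-CXXC fl/fl cells it deletes the ZF-CxxC domain from both proteins. In Kdm2a-CXXC fl/fl cells the domain is deleted from KDM2A alone, and in Kdm2b-CXXC fl/fl cells from KDM2B alone. The Kdm2a-CXXC and Kdm2a/b-CXXC lines were made by CRISPR editing and clone isolation, the latter in Kdm2b-CXXC cells, so that a line may carry features of its clone. No control received tamoxifen without floxed alleles, so the effect of the deletion and that of the drug cannot be told apart. Kdm2a/b-CXXC had 4 untreated and 4 treated ATAC libraries, and each other line had 3 of each.

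The 11 promoters are shown first as sequence, because the CpG content and the motifs at which their known repressors bind are written there. The windows below were taken from RefSeq (GRCm38.p6, the same build as mm10) and hold 250 bases before the start site and the first 30 bases from it, 5′ to 3′ on the coding strand. Capitals mark CACGTG, the E-box recognised by MAX and MGA, and TTCCCGC or its reverse complement GCGGGAA, the core of an E2F site. Ddx4, Sycp3, Hormad1, Stag3 and Slc25a31 are shown because they hold both motifs, Tdrd1 because its pair of starts differs in base composition, and Dazl because it holds neither motif.
Ddx4 (chr13:112652281-112652560, minus strand): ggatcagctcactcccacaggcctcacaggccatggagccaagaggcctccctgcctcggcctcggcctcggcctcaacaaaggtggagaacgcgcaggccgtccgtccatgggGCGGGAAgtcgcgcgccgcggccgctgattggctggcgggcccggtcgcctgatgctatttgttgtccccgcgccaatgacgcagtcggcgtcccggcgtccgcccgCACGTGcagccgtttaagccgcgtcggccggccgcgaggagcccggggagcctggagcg
Sycp3 (chr10:88459337-88459616, plus strand): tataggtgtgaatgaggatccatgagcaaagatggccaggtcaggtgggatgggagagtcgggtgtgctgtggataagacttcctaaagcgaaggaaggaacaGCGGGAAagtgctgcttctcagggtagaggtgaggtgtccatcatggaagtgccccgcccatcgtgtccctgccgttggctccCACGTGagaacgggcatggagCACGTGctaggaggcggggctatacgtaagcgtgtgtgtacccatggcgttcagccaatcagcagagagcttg
Hormad1 (chr3:95559427-95559706, plus strand): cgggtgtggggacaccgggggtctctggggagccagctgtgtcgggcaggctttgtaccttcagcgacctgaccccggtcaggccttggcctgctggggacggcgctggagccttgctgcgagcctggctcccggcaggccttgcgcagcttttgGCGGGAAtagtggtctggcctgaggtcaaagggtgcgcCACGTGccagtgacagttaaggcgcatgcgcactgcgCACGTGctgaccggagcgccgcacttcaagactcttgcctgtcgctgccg
Stag3 (chr5:138280259-138280538, plus strand): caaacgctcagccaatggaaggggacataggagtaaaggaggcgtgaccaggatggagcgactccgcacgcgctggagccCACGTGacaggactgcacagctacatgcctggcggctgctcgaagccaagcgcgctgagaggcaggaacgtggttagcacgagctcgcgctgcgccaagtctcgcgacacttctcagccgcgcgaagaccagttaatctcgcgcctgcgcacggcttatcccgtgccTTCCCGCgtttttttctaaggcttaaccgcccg
Slc25a31 (chr3:40708621-40708900, plus strand): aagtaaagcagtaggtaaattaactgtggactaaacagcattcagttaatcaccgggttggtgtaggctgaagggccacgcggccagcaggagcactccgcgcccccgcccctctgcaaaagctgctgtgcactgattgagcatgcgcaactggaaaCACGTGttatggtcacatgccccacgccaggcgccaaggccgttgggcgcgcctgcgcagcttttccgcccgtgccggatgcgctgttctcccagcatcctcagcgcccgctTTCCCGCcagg
Tdrd1 (chr19:56825959-56826238, plus strand): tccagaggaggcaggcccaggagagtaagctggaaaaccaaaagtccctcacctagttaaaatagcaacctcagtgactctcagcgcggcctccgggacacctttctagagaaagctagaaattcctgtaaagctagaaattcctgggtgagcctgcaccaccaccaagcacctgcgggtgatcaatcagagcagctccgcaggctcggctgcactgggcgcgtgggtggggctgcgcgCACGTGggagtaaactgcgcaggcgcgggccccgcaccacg
Tdrd1 downstream start (chr19:56830462-56830741, plus strand): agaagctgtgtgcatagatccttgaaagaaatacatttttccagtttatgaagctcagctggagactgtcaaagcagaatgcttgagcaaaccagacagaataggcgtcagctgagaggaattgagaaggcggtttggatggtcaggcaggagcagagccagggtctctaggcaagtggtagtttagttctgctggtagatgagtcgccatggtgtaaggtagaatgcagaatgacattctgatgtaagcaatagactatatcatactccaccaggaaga
Dazl (chr17:50293591-50293870, minus strand): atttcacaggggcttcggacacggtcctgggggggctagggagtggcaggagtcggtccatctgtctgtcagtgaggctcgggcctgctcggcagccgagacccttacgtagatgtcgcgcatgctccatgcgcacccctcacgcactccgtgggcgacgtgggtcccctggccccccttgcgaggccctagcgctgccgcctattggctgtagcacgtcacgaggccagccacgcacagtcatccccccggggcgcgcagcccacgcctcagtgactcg

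By base composition, 10 of the 11 promoters were CpG-rich, meaning that, in the 400 bp interval in which reads were counted, 50% or more of the bases were G or C and the CpG ratio (observed over expected CpG dinucleotides) reached 0.6. This is 90.9% of the germline promoters, against 54.6% of the 20630 promoters with a base composition. The germline genes were chosen as CpG island genes, so this share is a check and not a finding. Among the 10, GC content ran from 58.5% at Hormad1 to 76% at Ddx4, and the CpG ratio from 0.655 at Sycp3 to 0.981 at Stag3. The exception was the downstream start of Tdrd1 (NM_001002241, chr19:56830512-56830911), with a GC content of 43%, 4 CpG dinucleotides and a CpG ratio of 0.238. The upstream Tdrd1 start (NM_001002238, chr19:56826009-56826408) had a GC content of 63.2% and 31 CpG dinucleotides.

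The E-box was common in these promoters. Over the counted 400 bp intervals, CACGTG was present in 8 of 11 (72.7%), against 9.54% of all promoters and 11.9% of CpG-rich promoters. The E2F core was present in 5 of 11 (45.5%), against 8.92% of all promoters and 13.7% of CpG-rich ones. Both motifs stood together in 5 of 11, namely Ddx4, Sycp3, Hormad1, Stag3 and Slc25a31, against 1.11% of all promoters. In the RefSeq windows of 300 bases, Mael also held an E-box, 223 bases before its start, which made 9 of 11 against 7.15% of 32851 RefSeq windows. Sycp3 and Hormad1 each held 2 E-boxes in these windows. The genes were picked as known targets of repressors that read these motifs, so the shares describe the choice of genes, and a match is a stretch of letters and not a bound site. E-boxes were less frequent in a wider list of germline genes, with 9 of 30 CpG-rich promoters (30%) and 12 of 50 in all (24%).

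**Figure D1:**
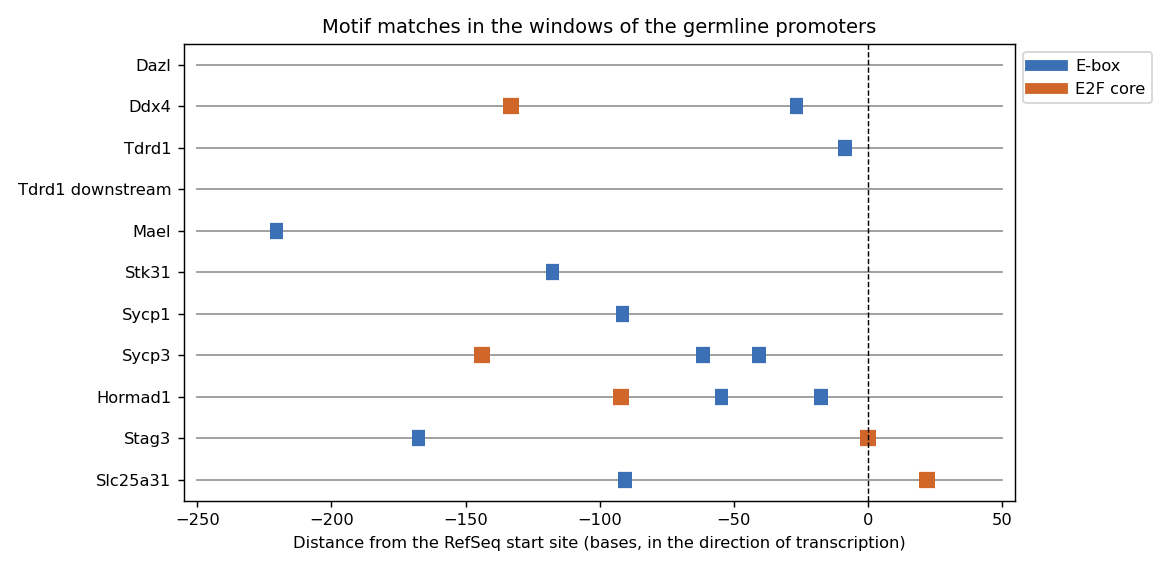
Positions of the motif matches in the RefSeq windows of the 11 germline promoters, drawn by distance in bases from the start site (dashed line), in the direction of transcription. Blue blocks are E-boxes and orange blocks E2F cores; 9 of 11 windows hold an E-box, and Dazl and the downstream Tdrd1 start hold neither motif.

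The 26 ATAC libraries held 1.49 to 3.03 M reads over promoters (M, 1000000), and the median promoter received 58 to 108 of them. Values are calibrated reads, that is reads in the 400 bp interval divided by the spike-in size factor of the library. Between replicates of a group, reads differed by 1.90 to 2.36 times the sampling variance (chi-square per degree of freedom), so no library was a copy of another. The labels' cell type was looked at through its markers by accessibility only, since promoter accessibility does not measure expression. Between 8 and 11 of the 16 promoters of naive pluripotency genes lay above the median of all promoters in untreated cells. It was 1 or 2 of 9 promoters of primitive endoderm genes and 0 of 7 fibroblast promoters in every line. Of all 20633 promoters, 10316 lie above their median by definition. The 8 of 16 in Kdm2a/b-JmjC were at that share, so the naive list was no check of the label there. In a bulk measurement of this kind, fewer cells with an open promoter and a less open promoter in each cell cannot be told apart.

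In untreated cells the 10 CpG-rich germline promoters lay above most olfactory receptor promoters and below the median of CpG-rich promoters. The downstream Tdrd1 start was lower and is described below. No group of closed CpG-rich promoters was set beside them, and the sequence bias of Tn5 was not corrected here with the tagmented genomic DNA. The median calibrated level of the 10 CpG-rich germline promoters was 49.2 in Kdm2a/b-JmjC, 44.3 with both ZF-CxxC domains floxed, 51.9 for Kdm2a-CXXC and 65.5 for Kdm2b-CXXC. All CpG-rich promoters had medians of 125.8, 106.0, 158.2 and 160.04 in the same order. Promoters of the olfactory receptor (Olfr) genes, which are not used in these cells and lack CpG islands, had medians of 5.37, 3.92, 6.57 and 5.35. All 11 germline promoters lay below the median of CpG-rich promoters in each line. The 10 CpG-rich ones each lay above the level that 95% of Olfr promoters stay under, which was 11.3, 8.51, 13.3 and 11.2 calibrated reads. CpG-rich promoters that hold an E-box had medians of 133.6, 113.1, 165.7 and 167.6, above those of all CpG-rich promoters in each line. The part of the E-box in the germline levels was not tested. The 30 CpG-rich promoters of the wider germline list had medians of 59.1, 51.0, 63.6 and 64.7. Those of the 9 primitive endoderm promoters were 52.5, 40.2, 48.8 and 63.6. An intermediate level was thus not particular to the 10 genes.

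**Figure D2:**
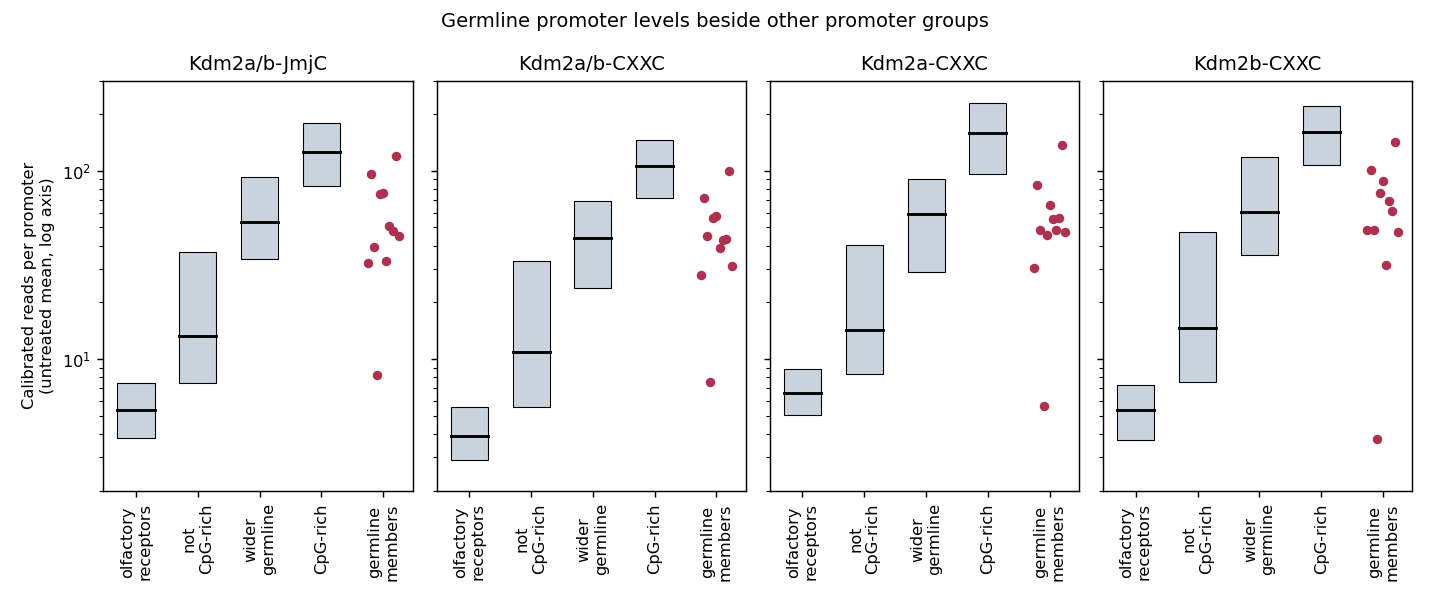
Untreated mean level in calibrated reads per promoter (log axis) in each line. Boxes span the lower to upper quartile of 4 promoter groups with the median as a line, and red points are the 11 germline promoters. The 10 CpG-rich ones lie between the olfactory receptor box and the CpG-rich median in each line. The low point is the downstream Tdrd1 start, above that box in Kdm2a/b-JmjC and Kdm2a/b-CXXC and within its span in the other lines.

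The order of levels was similar from line to line at the top and the bottom. Stag3, a subunit of meiotic cohesin, was highest in all 4 lines, with untreated means from 100.1 to 142.1 calibrated reads, which placed it above 65.2% to 68.6% of all promoters. Ddx4 was next in each line, with means from 72.1 to 100.4 and a percentile of 50.7 to 59.9. The annotated starts of Gpc2 lie 483 to 572 bp from the Stag3 start and thus outside the counted interval. Libraries of Stag3 and Ddx4 overlapped in Kdm2a/b-JmjC, Kdm2a/b-CXXC and Kdm2b-CXXC, and were apart in Kdm2a-CXXC. Stk31 took the next place in each line, at the 45.4 to 51.8 percentile.

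Most of the middle of the order could not be resolved. Sycp3, Hormad1, Tdrd1 and Slc25a31 lay between the 35.3 and 43.3 percentiles in all lines, and the libraries of neighbours in this stretch overlapped. In Kdm2a/b-JmjC the step from Mael down to Sycp3 was resolved, the libraries of both being apart. The untreated read share of Mael in this line had a log2 ratio of 0.45 to the mean of the other lines. The median ratio was 0.36 over its chromosome 1 and -0.046 over chromosome 10 of Sycp3. The part of the chromosome in this step was not tested. Dazl was at the 32.6 to 36.5 percentile, with untreated means of 28.0 to 48.3 calibrated reads, and it overlapped with its neighbours above. The downstream Tdrd1 start was last in every line, and its untreated libraries lay below those of the promoter above it in each. Over the 4 lines its untreated mean ran from 3.78 to 8.24 calibrated reads, between the 2.49 and 17.3 percentiles, while the upstream Tdrd1 start, 4503 bp away, had means of 39.3 to 48.5. In all libraries together the downstream start held 0 to 13 reads and the upstream start 27 to 73. In Kdm2b-CXXC untreated replicate 3 the downstream start had 0 reads, and a count of 0 still allows up to 3 reads by counting error alone.

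Whether loss of KDM2 long forms or of CpG island binding changes accessibility at these promoters was tested with limma on log2(calibrated reads + 1), over every promoter that passed a filter on low counts. A call needed a fold change above 1.4 together with a p below 0.05 after Benjamini-Hochberg adjustment over those promoters. In each line 10 of the 11 germline promoters were tested, the downstream Tdrd1 start having too few reads. None of the 10 was called in any line. Of the 40 tests, 38 gave a 95% interval of the log2 fold change that held 0, and 34 intervals lay within 1 log2 unit either way, so larger changes are outside them.

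The background differed between lines. In Kdm2a/b-JmjC, 0 of 10 germline promoters were called by limma against 0.0757% of 17174 promoters (13), while 1 of 10 had an unadjusted p under 0.05 and a lower value, against 20.3% of all promoters lower and 0.262% higher. In Kdm2a/b-CXXC, 0 of 10 were called by limma against 0% of 16413 promoters, and 1 of 10 had an unadjusted p under 0.05 and a higher value, against 3.58% higher and 1.07% lower. In Kdm2a-CXXC and Kdm2b-CXXC, 0 of 10 were called by limma, against 0% of 17727 and 0% of 17930 promoters, and 0 of 10 had an unadjusted p under 0.05, against 0.395% higher and 8% lower in the former and 0.519% higher and 0.151% lower in the latter. With edgeR on the recovered reads, 0 of 10 were called in each line, and 1, 1, 0 and 0 had an unadjusted p under 0.05 in the order of lines above. By unadjusted p DESeq2 gave the same counts. It called 0 of 10 in the CXXC lines, while in Kdm2a/b-JmjC it gave an adjusted p to 1525 of the 17174 promoters and to 0 of the 10 germline ones, so that none there could be called.

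The overlap of treated and untreated libraries gave a similar picture. In Kdm2a/b-JmjC, 0 of 10 germline promoters had all treated libraries above the untreated ones (0.908% of all promoters) and 1 of 10 had them all below (23.2%). In Kdm2a/b-CXXC it was 0 of 10 above (1.8%) and 0 of 10 below (0.597%). In Kdm2a-CXXC it was 0 of 10 above (1.12%) and 1 of 10 below (13.4%), and in Kdm2b-CXXC 0 of 10 above (2.13%) and 0 of 10 below (0.446%).

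On the spike-in scale the median promoter of each line lay away from 0, and the germline promoters are given beside it. In Kdm2a/b-JmjC the median log2 fold change was -0.23 over the 10 germline promoters and -0.21 over all promoters tested. It was 0.20 and 0.087 for Kdm2a/b-CXXC, -0.063 and -0.18 for Kdm2a-CXXC, and 0.19 and 0.099 for Kdm2b-CXXC. Single libraries moved these medians: the germline median of Kdm2a-CXXC was 0.039 without treated replicate 1 (all promoters -0.073) and -0.19 without treated replicate 3 (-0.27), and that of Kdm2b-CXXC was -0.044 without untreated replicate 2 (-0.070) and 0.39 without untreated replicate 1 (0.30). In Kdm2a/b-JmjC 8 of 10 were below 0, against 83.4% of all promoters, and in Kdm2a-CXXC 8 of 10, against 81.2%. In Kdm2a/b-CXXC 1 of 10 was below 0, against 32%, and in Kdm2b-CXXC 3 of 10, against 28.9%. With TMM scaling, which puts the median of all promoters close to 0, the germline medians were -0.032, 0.12, 0.11 and 0.087, and 5, 3, 2 and 4 of 10 were below 0, against 51.4%, 49.8%, 52.4% and 50.7% of all promoters.

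**Figure D3:**
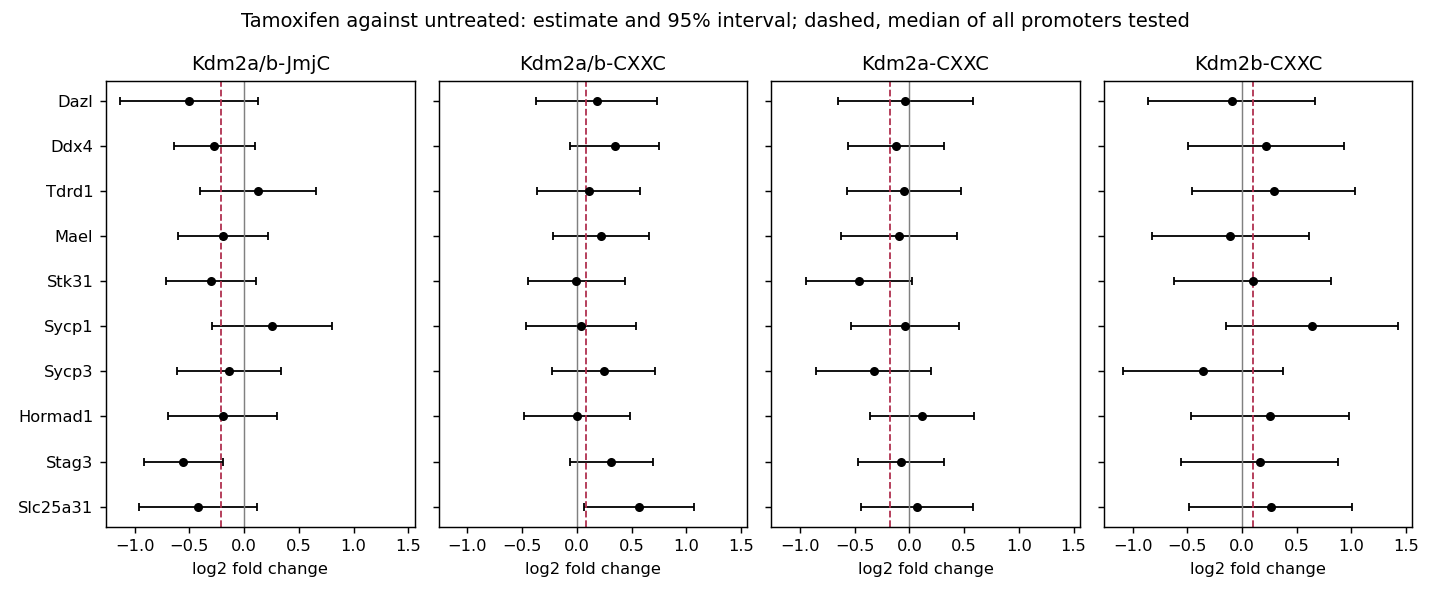
Log2 fold change (tamoxifen against untreated) with its 95% interval from limma for the 10 germline promoters tested in each line; the grey line is 0 and the dashed line the median of all promoters tested. Of the 40 intervals, 38 hold 0, the exceptions being Stag3 in Kdm2a/b-JmjC and Slc25a31 in Kdm2a/b-CXXC.

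Of all germline promoters, Stag3 gave the lowest adjusted p. Stag3 (NM_016964, chr5:138280309-138280708, over its first exon) encodes the cohesin subunit that joins sister chromatids in meiosis. In Kdm2a/b-JmjC its untreated libraries held 93.7, 136.9 and 128.3 calibrated reads and its treated libraries 101.4, 76.7 and 65.5. The highest treated library, replicate 1, lay above the lowest untreated one, so the groups overlapped. The means were 119.6 ± 22.8 (SD, n = 3) and 81.2 ± 18.4 (SD, n = 3), a log2 fold change of -0.56 (SE 0.184, 95% interval -0.92 to -0.20, limma adjusted p = 0.0951). Without treated replicate 1, where 607 of 17920 promoters were called, it was -0.73 and was called (limma adjusted p = 0.0293). With TMM scaling it was -0.35 (limma adjusted p = 0.882).

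In the other lines the interval of Stag3 held 0. In Kdm2a/b-CXXC its untreated libraries held 105.7, 78.7, 116.2 and 99.7 calibrated reads and its treated libraries 170.03, 122.2, 120.3 and 93.1. Treated replicate 4 lay inside the untreated range and the log2 fold change was 0.32 (95% interval -0.064 to 0.69). In Kdm2a-CXXC the estimate was -0.080 (95% interval -0.47 to 0.31) and in Kdm2b-CXXC 0.16 (95% interval -0.56 to 0.88). Differences between lines were not tested, since each line was calibrated on its own.

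Sycp1 and Sycp3 encode the transverse filament and an axial element protein of the synaptonemal complex. Sycp3 (NM_011517, chr10:88459387-88459786, over its first exon) held 45.9, 49.5 and 50.7 calibrated reads in untreated Kdm2a-CXXC cells and 39.2, 34.8 and 41.9 after tamoxifen. Each treated library was lower than each untreated one, the single germline promoter of 10 to do so in this line, against 13.4% of all promoters. Its log2 fold change was -0.33 (SE 0.27, 95% interval -0.86 to 0.20, limma adjusted p = 0.661), and -0.16 with TMM scaling. In Kdm2a/b-JmjC, where both proteins lose their long forms, Sycp3 was at 50.7 ± 4.51 and 45.8 ± 1.04 calibrated reads (SD, n = 3 each).

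Sycp1 (NM_011516, chr3:102935901-102936300, over its first exon) had its largest difference in Kdm2b-CXXC. There it held 43.8, 18.4 and 32.5 calibrated reads untreated and 52.9, 39.4 and 49.8 after tamoxifen. The treated replicate 2 lay below the untreated replicate 1, and the log2 fold change was 0.64 (SE 0.401, 95% interval -0.14 to 1.43, limma adjusted p = 1.00). The untreated libraries of this line spread in the same way at most germline promoters: replicate 1 was the highest of the 3 at 11 of 11, and replicate 2 the lowest at 9 of 11. Their calibrated totals over all promoters were 2.96, 1.75 and 2.12 M, and the part of these totals in the values above was not tested. With TMM scaling Sycp1 was 0.54 in this line (limma unadjusted p = 0.037, adjusted p = 0.618). Sycp3 was -0.46 there (limma unadjusted p = 0.030, adjusted p = 0.598). These were the 2 of 10 germline promoters with an unadjusted p under 0.05 under that scaling, against 1396 of 17930 promoters. The half-width of the germline intervals in Kdm2b-CXXC was 0.71 to 0.79, against 0.36 to 0.63 in Kdm2a/b-JmjC, both from the fit that did not pair libraries.

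Hormad1 (NM_001289537, chr3:95559477-95559876, over its first exon) encodes a HORMA-domain protein of the meiotic chromosome axis. Its untreated means were 43.6 to 61.5 calibrated reads and its log2 fold changes lay between -0.20 and 0.25, with every interval holding 0. In Kdm2a/b-CXXC the means were 43.6 ± 11.2 and 42.9 ± 6.1 calibrated reads (SD, n = 4 each), a log2 fold change of 0.0019 (95% interval -0.48 to 0.49).

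Of the RNA-binding and piRNA pathway genes, Ddx4 (NM_001145885, chr13:112652111-112652510, over its first exon) encodes the germ cell RNA helicase Vasa. In Kdm2a/b-JmjC its untreated libraries held 97.1, 91.6 and 100.8 calibrated reads and its treated libraries 84.3, 83.8 and 71.6. The groups did not overlap, which was true of 1 of 10 germline promoters in this line and of 23.2% of all promoters in this direction. The log2 fold change was -0.27 (SE 0.189, 95% interval -0.64 to 0.10, limma adjusted p = 0.400), beside a median of -0.21 over all promoters, and -0.068 with TMM scaling. In Kdm2a/b-CXXC its untreated libraries held 84.9, 66.8, 82.5 and 54.2 calibrated reads and its treated libraries 117.1, 91.7, 85.1 and 73.03. Treated replicate 4 lay within the untreated range, and the log2 fold change was 0.34 (95% interval -0.061 to 0.75, limma adjusted p = 0.996).

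Dazl (NM_001277863, chr17:50293421-50293820, over its first exon) encodes an RNA-binding protein that germ cells need for their development. In Kdm2a/b-CXXC it held 37.5, 22.9, 20.6 and 31.0 calibrated reads untreated and 66.4, 24.6, 22.5 and 24.9 after tamoxifen. A single treated library, replicate 1, stood above all others, and the other treated libraries lay inside the untreated range. The log2 fold change was 0.18 (95% interval -0.37 to 0.74), and -0.18 without that library. In Kdm2a/b-JmjC it held 27.1, 27.2 and 43.1 calibrated reads untreated and 32.0, 20.4 and 16.4 after tamoxifen, a log2 fold change of -0.50 (95% interval -1.14 to 0.13, limma adjusted p = 0.354).

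Tdrd1 encodes a Tudor-domain protein of the piRNA pathway. Its upstream start showed the same library apart in Kdm2a/b-CXXC, with 58.3, 34.9, 53.4 and 33.9 calibrated reads untreated and 82.2, 36.5, 43.03 and 38.5 after tamoxifen. The treated replicate 1 of this line was the highest of the 4 treated libraries at 10 of 11 germline promoters, and its calibrated total over all promoters was 2.04 M, against 1.33 to 1.68 M in the other treated libraries. Without it the median over the 10 germline promoters fell from 0.20 to 0.027, and the median over all promoters from 0.087 to -0.022. The downstream start of Tdrd1 was not tested in any line, and its treated libraries held between 0.968 and 9.61 calibrated reads over the 4 lines.

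Mael (NM_175296, chr1:166238545-166238944, over its first exon) encodes the piRNA pathway protein Maelstrom, and Stk31 (NM_029916, chr6:49395404-49395803, over its first exon) a germ cell protein with a Tudor and a kinase domain. The log2 fold changes of Mael lay between -0.19 and 0.22, and each interval held 0. Stk31 held 54.5, 72.3 and 71.9 calibrated reads in untreated Kdm2a-CXXC cells and 46.2, 31.0 and 74.9 after tamoxifen. Treated replicate 3 lay above and the other treated libraries below all untreated ones, and the log2 fold change was -0.46 (SE 0.247, 95% interval -0.94 to 0.026, limma adjusted p = 0.596). It was -0.16 without treated replicate 2 and -0.78 without treated replicate 3 (limma adjusted p = 0.0926).

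Slc25a31 (NM_178386, chr3:40708671-40709070, over its first exon) encodes the ADP/ATP carrier of male germ cell mitochondria. In Kdm2a/b-CXXC it held 31.6, 29.9, 37.5 and 26.1 calibrated reads untreated and 67.6, 33.1, 41.1 and 50.6 after tamoxifen. The lowest treated library, replicate 2, lay under the highest untreated one, so the groups overlapped by that library. The means were 31.3 ± 4.72 and 48.1 ± 14.8 calibrated reads (SD, n = 4 each), a log2 fold change of 0.57 (SE 0.257, 95% interval 0.064 to 1.07, limma adjusted p = 0.996). In Kdm2a/b-JmjC it was -0.42 (95% interval -0.96 to 0.11), with 50.8, 49.9 and 33.9 calibrated reads untreated and 42.7, 26.6 and 30.7 after tamoxifen. In Kdm2a-CXXC and Kdm2b-CXXC the log2 fold changes were 0.070 and 0.26, with intervals that held 0.

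**Figure D4:**
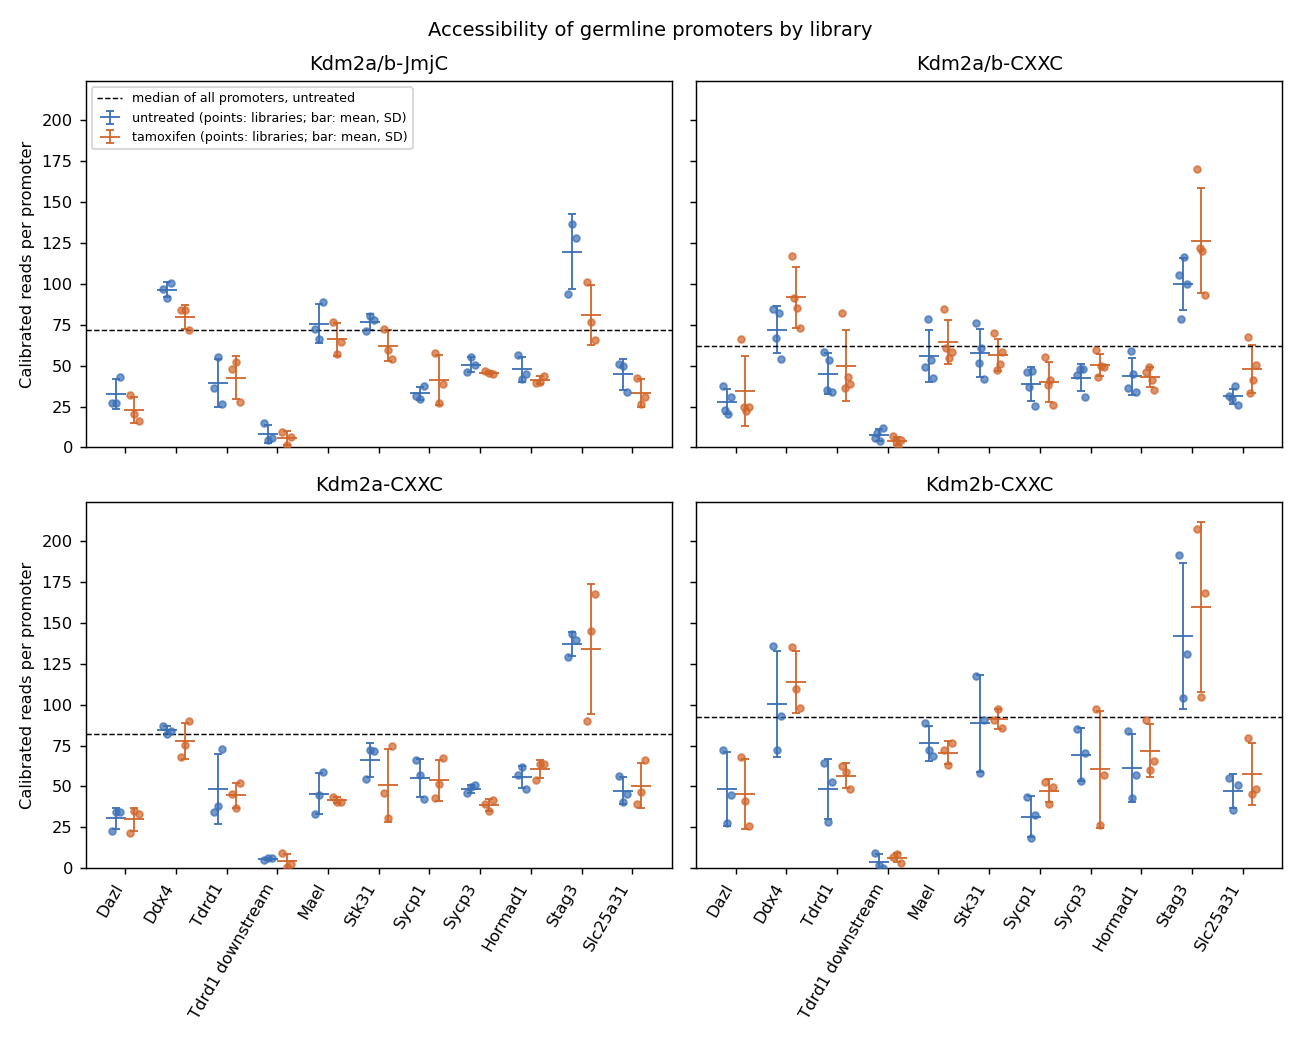
Calibrated reads per promoter in every library (points) of each line, untreated in blue and tamoxifen-treated in orange, with group mean and SD. The dashed line is the untreated median of all promoters; treated and untreated points are apart at Ddx4 in Kdm2a/b-JmjC and at Sycp3 in Kdm2a-CXXC, and overlap at the other promoters.

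The lines also differed in how much of their untreated signal fell on single germline promoters. To compare lines apart from the calibration, recovered reads were expressed per 1000000 promoter reads (RPM), as a description with no test. Mael had 19.5 ± 3.86 RPM in Kdm2a-CXXC (SD, n = 3), against a mean of 37.6 over the other lines, a log2 ratio of -0.94. Its libraries in that line ran from 15.7 to 23.4 and those of all other lines from 29.2 to 50.3, so they did not overlap. A higher ratio was seen at 97.1% of the 17039 promoters compared, whose median was -0.084, and the median of chromosome 1 was 0.015. Sycp1 was low in Kdm2b-CXXC, at 13.6 ± 2.63 RPM against 22.6 over the other lines, a log2 ratio of -0.74, where the median of chromosome 3 was -0.080. Its libraries ran from 10.5 to 15.4 in that line and from 15.8 to 31.6 in the others. A higher ratio was seen at 97.9% of the 17095 promoters compared, whose median was 0.012. How many of all promoters stand apart between lines in this way was not counted. At the remaining 9 promoters the range of each line overlapped the span from the lowest to the highest library of all other lines. A pair of lines could still be apart. In Kdm2a-CXXC, Ddx4 ran from 33.5 to 40.8 RPM, against 48.3 to 56.1 in Kdm2a/b-JmjC and 41.4 to 46.0 in Kdm2b-CXXC. Stk31 ran from 25.6 to 31.4, against 39.4 to 43.4 and 33.3 to 42.7 in the same lines. Sycp3 ran from 20.2 to 21.5, against 25.6 to 29.2 and 28.8 to 33.2. Dazl ran from 10.8 to 14.9, against 15.8 to 24.6 in Kdm2b-CXXC. Ddx4 was also apart between Kdm2a/b-JmjC and Kdm2b-CXXC. Each of these promoters overlapped with its range in Kdm2a/b-CXXC. In Kdm2a-CXXC, a higher ratio to the other lines was seen at 79.9% of promoters for Ddx4, 84.5% for Stk31, 83.8% for Sycp3 and 87.5% for Dazl. The share of all promoters apart between a pair of lines was not counted.

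**Figure D5:**
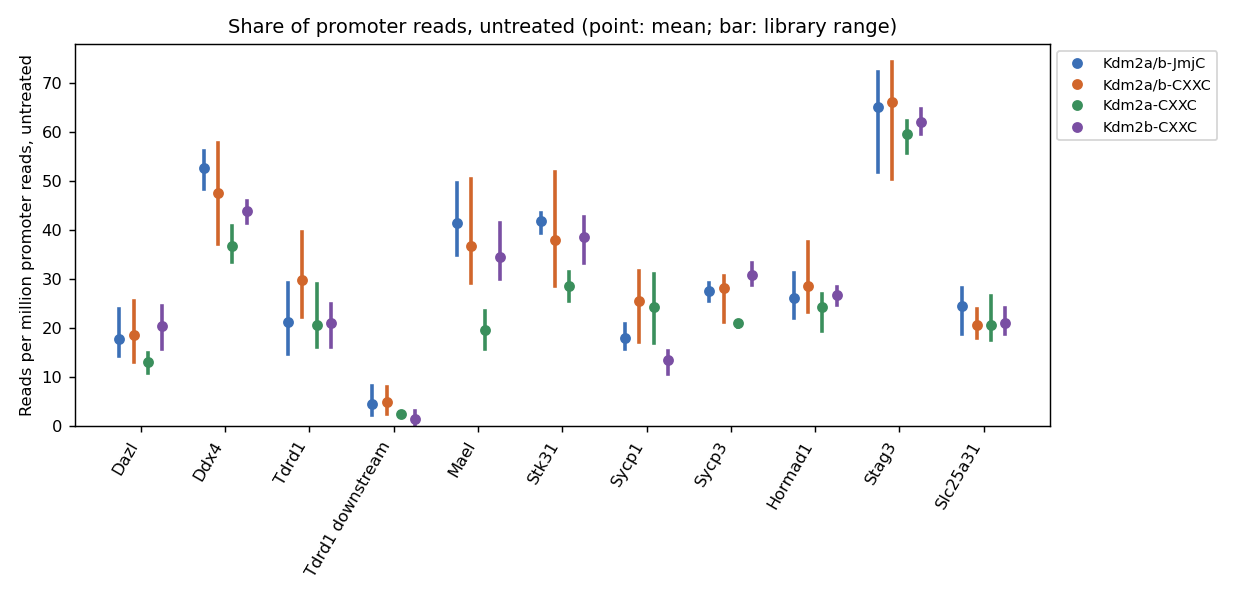
Reads per 1000000 promoter reads (RPM) at the 11 germline promoters in untreated cells of the 4 lines, as the mean (point) and the lowest to highest library (bar). Mael in Kdm2a-CXXC and Sycp1 in Kdm2b-CXXC lie below every library of the other lines.

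A wider list of germline genes was described in the same way. Of its 50 genes, 48 were matched, with 50 promoters, and limma called none of those tested in any line. In Kdm2a/b-JmjC 11 of 47 had an unadjusted p under 0.05 and a lower value (background 20.3%), and their list median was -0.29. The smallest p belonged to Terb1, which tethers meiotic telomeres (log2 fold change -0.63), Ddx25, a testis RNA helicase (-0.97), and Tdrkh, of the piRNA pathway (-0.47). With edgeR, Terb1 (-0.65, adjusted p = 0.0471) and Ddx25 (adjusted p = 0.0482) were called, and Terb1 also by limma over promoters with a mean of at least 20 calibrated reads (adjusted p = 0.0462). Over all promoters these settings called 114 of 17174 and 100 of 14676. Without treated replicate 1, limma called 607 of 17920 promoters over all and 4 of the 47 tested from the list. These were Terb1, Ddx25, Tdrkh and Mei4, the last named after its values were seen. Tdrkh was -0.66 without treated replicate 1 and -0.19 without treated replicate 2. In Kdm2a/b-CXXC 2 of 47 had an unadjusted p under 0.05, both higher (background 3.58%), namely Dkkl1, an acrosome protein gene (0.70), and Mei1, needed for meiotic DNA breaks (0.57). In Kdm2a-CXXC 4 of 49 were lower (background 8%), the smallest p being those of Dnd1, a germ cell RNA-binding protein gene (-0.66), Terb1 (-0.61) and Mei4, needed for meiotic breaks (-0.37). Dnd1 was called without treated replicate 3 (-0.79, limma adjusted p = 0.0496), where 43 of 18304 promoters were called. In Kdm2b-CXXC 0 of 48 had an unadjusted p under 0.05 by limma.

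The promoters of the genes that encode the known repressors of germline genes were tested as well. Of 27 listed gene symbols, which include Pcgf6, E2f6, Mga, Dnmt1 and Uhrf1, 25 were matched, with 29 promoters. By limma 0 were called in any line, and 5 of 28, 0 of 27, 3 of 28 and 0 of 29 had an unadjusted p under 0.05, all of them lower (background 20.3% in Kdm2a/b-JmjC and 8% in Kdm2a-CXXC). Their median log2 fold changes were -0.20, 0.10, -0.22 and 0.13 in the same order of lines as before, beside the medians of all promoters given above.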

How the data were processed

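Chromatin accessibility was measured by cATAC-seq in 26 libraries, beside 26 input libraries of tagmented genomic DNA (52 samples in all); the input libraries are not analysed here, and 2 of them, whose title and treatment label differ, were put in no group. Paired-end reads were aligned by the authors, using Bowtie 2, to concatenated mm10 and dm6 genomes. They discarded multi-mapping reads, PCR duplicates (SAMtools), and blacklisted and mitochondrial reads, and counted mouse reads over 20633 promoters of 400 bp. Each library column deposited by the authors is a signal, the reads divided by a size factor from Drosophila reads corrected by the matched genomic DNA. There is 1 table per line, so groups were tested only within a line. The authors' own means, fold changes, standard errors, test statistics and p-values were not used.

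The steps between values gave the size factors (0.718 to 1.41) and whole reads for 100% of values. RefSeq identifiers were matched to symbols for 99.1% of promoters. The 10 genes and the other lists were chosen with earlier results of these data known. Calibrated reads plus 1 were taken to log2 and tested by limma 3.58.1 (trend = TRUE) for promoters that filterByExpr kept given the recovered reads. Adjustment was by Benjamini-Hochberg over all promoters tested, and calls needed a p below 0.05 after it and a fold change above 1.4. The fit was checked on simulated data. A fold change on this scale understates the change of promoters with low values. Alternatives were TMM and median-of-ratios scaling, pseudocounts of 0.5 and 5, no filter, a mean of at least 20 calibrated reads, edgeR 4.0.16, DESeq2 1.42.0, the replicate number as a block and leaving out each library. All 10 genes were named in each line; of the wider list, up to 3 promoters with the smallest unadjusted p under 0.05. List genes with no matched row, among them Setdb1, were not analysed here. Replicates are biological per the methods. Motifs were searched on both strands in the GRCm38.p6 reference. Coordinates are 1-based. PCR copies were removed without molecular identifiers, so intervals from counts alone would cover counting error only.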

Additional observations from a re-analysis of the deposited data

Results flagged for a closer look

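In groups of 4 libraries, which only Kdm2a/b-CXXC has, a library far from the others was looked for at each of the 11 germline promoters, in 22 groups of values. It was found in 2. Tamoxifen replicate 1 held 66.4 calibrated reads at Dazl, where the other treated libraries held 22.5 to 24.9, so that the gap was 0.946 of the range. The same library held 82.2 calibrated reads at the upstream Tdrd1 start, where the others held 36.5 to 43.03, a gap of 0.857 of the range. Chance alone marks about 1 group in 20, and both marks fall on a single library, whose calibrated total was also the highest of the treated libraries of its line, at 2.04 M. The part of that total in these values was not tested. No germline promoter had treated libraries all above the untreated ones in 1 line and all below them in another.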

How the results depend on the processing

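At the germline promoters, 0 of 10 were called in each line under the alternatives that kept all libraries, leaving aside DESeq2 in Kdm2a/b-JmjC, which gave 0 of the 10 an adjusted p, and their log2 fold changes kept their sign in all 40 cases with either other pseudocount, no filter, or the minimum mean. Leaving out 1 library gave 0 to 1 called promoters in Kdm2a/b-JmjC, where the 1 was Stag3 without tamoxifen replicate 1, and 0 to 0 in the other lines. Without that Kdm2a/b-JmjC library, 607 of 17920 promoters were called over all. The median percentile of the 11 promoters in untreated Kdm2a/b-JmjC cells was 40.2, and 38.3 to 41.3 with 1 library left out. All 10 CpG-rich promoters also met the stricter limits (GC 55%, ratio 0.65). The calls over all promoters were less stable: in Kdm2a/b-JmjC 13 by limma became 114 by edgeR, 12 by DESeq2 and 0 with TMM scaling. Scaling by TMM and by median-of-ratios turned the sign of the log2 fold change of the following, with both values: In Kdm2a/b-JmjC Mael 0.011 and 0.013, Sycp3 0.063 and 0.065, Hormad1 0.0036 and 0.0061. In Kdm2a/b-CXXC Sycp1 -0.052 and -0.053, Hormad1 -0.084 and -0.085. In Kdm2a-CXXC Dazl 0.13 and 0.13, Ddx4 0.045 and 0.049, Tdrd1 0.12 and 0.13, Mael 0.072 and 0.076, Sycp1 0.13 and 0.13, Stag3 0.091 and 0.10. In Kdm2b-CXXC Stk31 -0.0047 and -0.0076. Hormad1 in Kdm2a/b-CXXC was -0.023 by edgeR and -0.023 by DESeq2. The cause was not tested. Signs that turned with 1 library left out belonged to these promoters, with the lowest and highest value: In Kdm2a/b-JmjC Sycp1 -0.0097 to 0.51, Tdrd1 -0.12 to 0.41. In Kdm2a/b-CXXC Dazl -0.18 to 0.33, Hormad1 -0.10 to 0.15, Stk31 -0.15 to 0.14, Sycp1 -0.15 to 0.22, Tdrd1 -0.15 to 0.24. In Kdm2a-CXXC Dazl -0.22 to 0.17, Mael -0.30 to 0.10, Slc25a31 -0.14 to 0.23, Stag3 -0.26 to 0.18, Sycp1 -0.21 to 0.11, Tdrd1 -0.25 to 0.28. In Kdm2b-CXXC Dazl -0.44 to 0.25, Mael -0.18 to 0.0038, Stag3 -0.053 to 0.44, Stk31 -0.18 to 0.33, Sycp3 -0.79 to 0.13, Tdrd1 -0.049 to 0.53.

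Libraries were not treated as pairs, since the labels give only a shared number and no correlation of same-numbered deviations was over 0.1: they were 0.043 to 0.073 in Kdm2a/b-JmjC, where 6 of 6 libraries went best with their own number, a hint from the data and not the design, and under 0.044 in the other lines. These correlations were taken across promoters and cannot see a shift of a whole library. In Kdm2b-CXXC the calibrated totals of replicates 1 to 3 were 2.96, 1.75 and 2.12 M untreated and 3.19, 1.98 and 2.11 M treated. In Kdm2a-CXXC they were 2.13, 2.30 and 2.51 M, and 1.76, 2.04 and 2.33 M. In the other lines the order of totals differed between untreated and treated libraries. With the replicate number as a block, 0 germline promoters were called in each line, and over all promoters 62 were called for Kdm2a/b-JmjC, 0 for Kdm2a/b-CXXC, 188 for Kdm2a-CXXC and 5 for Kdm2b-CXXC. The smallest limma adjusted p of a germline promoter with the block was 0.0881, 0.997, 0.188 and 0.391 in the same order of lines. Promoters with an unadjusted limma p under 0.05 went from 120 to 1785 in Kdm2b-CXXC and from 1488 to 3895 in Kdm2a-CXXC. In Kdm2a/b-JmjC they went from 3537 to 3544 and in Kdm2a/b-CXXC from 764 to 733. Of the wider list, Dnd1 in Kdm2a-CXXC was called with the block (-0.66, limma adjusted p = 0.0177). With 16 to 206 reads at each CpG-rich germline promoter per library, small changes could not be told from the spread.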
